A study of Rattus norvegicus with 7 samples.

Results

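The genes described are the translation initiation and elongation factors of the rat lens, taken as all probes whose platform symbol begins with Eif1, Eif2, Eif3, Eif4, Eif5, Eif6, Eef1 or Eef2, the kinases of eIF2 included. The platform names 57 such genes on 59 probes, and 43 of the 57 had a log2 signal above 5 in at least 1 array, out of 5031 genes above that limit in the whole table. Another 3 probes that pass the limit carry several genes each, at least 1 of them such a factor, and were left out. Lenses of 6-week-old male Sprague Dawley rats were cultured ex vivo, and each sample was measured on 1 Rat Gene 2.0 ST array. Control is 1 lens sample cultured for 4 days (Control Day 4) and 1 for 6 days (Control Day 6) with no galactose, Galactose is 3 samples cultured for 6 days with 30 mM galactose, and Glutamate is 2 samples cultured for 6 days with 30 mM galactose, of which the last 3 days were also with 20 mM glutamate. Nothing states that the samples come from separate animals, so a p covers only the spread among these samples, and the number of arrays limits the precision. The lens was ground whole, so epithelium and fibre cells are measured together, and fewer cells of a type and less RNA per cell cannot be told apart. All values are log2 signals, on which a difference of 1 is a 2-fold difference, and SE is the standard error of such a difference in limma.

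Translation of an mRNA starts when the small ribosomal subunit, carrying eIF1, eIF1A, eIF3, eIF5 and the initiator tRNA held by eIF2, is brought to the capped end of the mRNA by eIF4F and scans to the start codon. eIF4F is made of the cap-binding protein eIF4E, the scaffold eIF4G and the RNA helicase eIF4A, and the 4E-BP proteins hold eIF4E back. Phosphorylation of eIF2 by stress-activated kinases blocks its recharging by eIF2B and lowers most protein synthesis. eEF1A then brings each aminoacyl-tRNA to the ribosome and eEF2 moves the ribosome on by a codon. In the lens, protein synthesis takes place in the epithelium and the outer fibre cells, which make crystallins in very large amounts, while the mature fibre cells of the centre have lost their organelles.

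The first question was how these genes stood after 6 days in galactose. From Control to Galactose, 33 of the 43 genes had a higher mean and 10 a lower mean, where 62% and 38% of all tested probes did so, and 0 changed in limma at an adjusted p under 0.05, with 0.094% of the 5320 tested probes called in that comparison. At an unadjusted p under 0.05, 8 members (18.6%) were higher in Galactose and 1 (2.33%) lower, against 11.8% and 5.23% of all tested probes. The median log2 difference of the members was 0.43, with a range from -0.68 to 1.56, and that of all tested probes 0.17. When the quantile normalization was repeated over the named probes, the medians were 0.09 for the members and 0.0046 for all probes, 27 of the 43 members were above 0, and the share of all probes above 0 went from 62% to 50.3%. In 14 members all Galactose arrays lay above both Control arrays and in 2 all lay below, where 21.5% and 12.1% of all tested probes did so. The 8 members at an unadjusted p under 0.05 were Eif1a, Eif1b, Eif3d, Eif3k, Eif3m, Eif4a1, Eif4e2 and Eef1e1. Eef1e1 is above the limit in Galactose arrays alone and so entered the test through the group in which it is high.

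**Figure D1:**
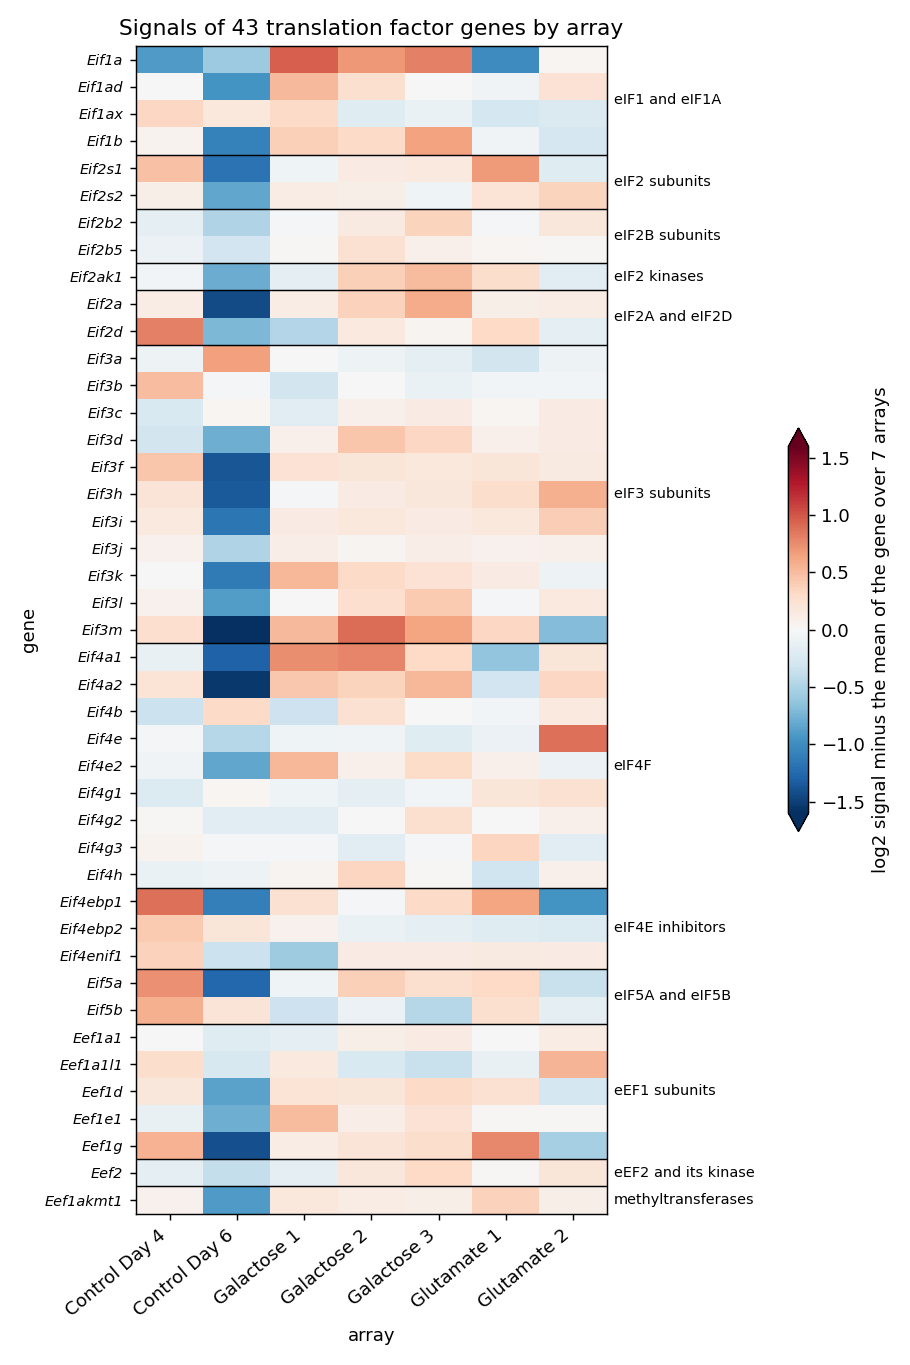
Log2 signal of each of the 43 translation factor genes (rows, by role) in each of the 7 arrays (columns), as the distance from the mean of the gene over the arrays (colour; values beyond 1.6 either way have the end colour). Control Day 6 is the lowest column for most genes, with 36 of the 43 below their own mean, against 10 to 17 in each of the other arrays.

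Most of these values depended on which Control array was used. Control Day 6 lay below Control Day 4 in 37 of the 43 members (86%), against 70.5% of all tested probes, and at least 2-fold below in 15 (34.9%), against 25.4%. The median difference of the members between these arrays was -0.72, and that of all probes -0.40. Between any pair of Galactose arrays 0 members were 2-fold apart, where 0.658% to 3.4% of all probes were, and between the Glutamate arrays 4 were, where 6.02% of all probes were. Against Control Day 4 alone, the Galactose mean was higher in 26 of the 43 members, with a median difference of 0.06, against 47.9% of all probes and a median of -0.02. Against Control Day 6 alone it was higher in 34, with a median of 1.04, against 67.1% of all probes and a median of 0.32. In the fit without Control Day 6, 0 members changed (0.113% of all probes), and at an unadjusted p under 0.05, Eif1a and Eif3d were higher while Eif2d, Eif3b, Eif4ebp2 and Eif5b were lower, where 8.38% and 10.7% of all probes were higher and lower. Eif2d is above the limit in Control Day 4 alone, so that its place among the members rests on the array it is compared with here. In the fit without Control Day 4, 23 members changed, 22 of them higher and Eif3a lower, where 32.3% of all probes were called. The Control arrays differ in culture time and each stands for 1 sample, so that time, sample and array cannot be told apart.

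**Figure D2:**
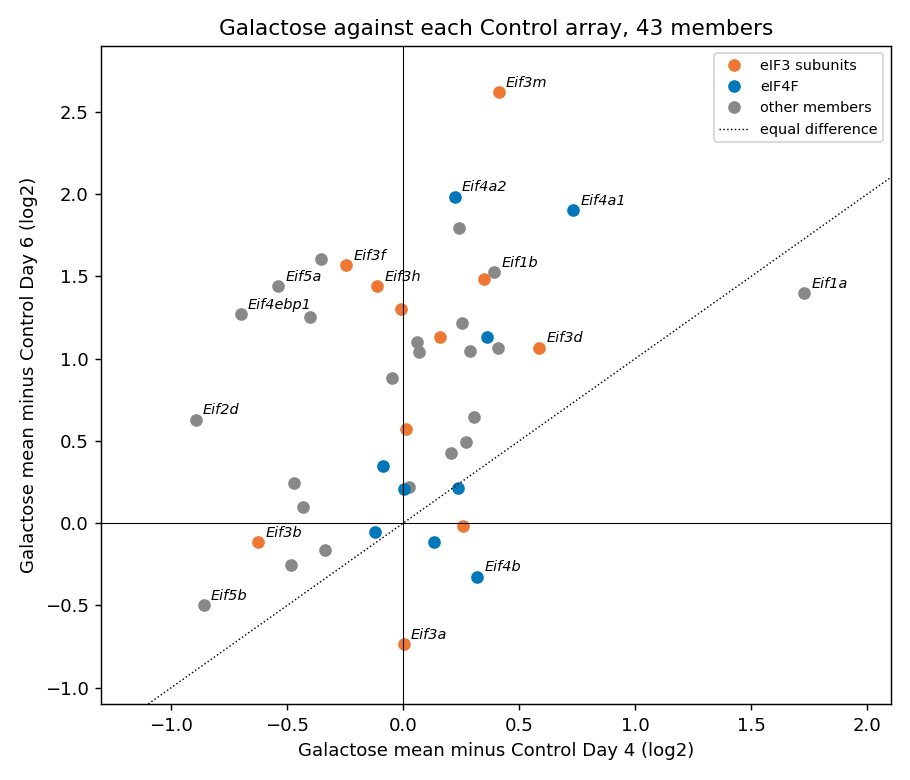
Galactose mean minus Control Day 4 (horizontal axis) and minus Control Day 6 (vertical axis), in log2 units, for the 43 members, with eIF3 subunits and eIF4F genes coloured. Eif1a, at 1.73 and 1.40, lies below the line of equal difference, while Eif3m, at 0.41 and 2.62, and 9 of the 11 eIF3 subunits lie above it.

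The largest difference between Galactose and Control, and one that stood against each Control array, was that of Eif1a, which encodes a form of eIF1A, the factor that binds the decoding site of the small subunit during scanning. It was at 5.70 and 6.03 in Control Day 4 and Day 6, 7.56, 7.31 and 7.42 in Galactose, and 5.599 and 6.64 in Glutamate. All 3 Galactose arrays thus lay above every other array. The log2 difference from Control to Galactose was 1.56 (SE 0.33, adjusted p = 0.124 from limma). It was 1.73 when Control Day 6 was left out and 1.40 when Control Day 4 was, each against the remaining Control array alone. From Galactose to Glutamate it was -1.31 (SE 0.33, adjusted p = 0.606), with Glutamate 2 at a distance of 1.04 above Glutamate 1. Eif1a is among the genes that the study picked on these arrays for that course, as are Eif3m and Eif4a1. The Galactose mean was 2.48-fold the Glutamate mean for Eif1a, 1.81-fold for Eif3m and 1.77-fold for Eif4a1. The paper also names Eif1a among the genes whose change it measured by RT-qPCR, which was not analysed here. These 3 members were at least 2-fold higher in Galactose and at least 1.5-fold lower in Glutamate, as were 4.77% of all tested probes, so these values describe the selection and are not independent evidence of it.

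Eif1ax, the X-linked gene for eIF1A, did not have this course. Its signals were 6.52 and 6.35 in Control Day 4 and Day 6, 6.49, 5.99 and 6.07 in Galactose, and 5.90 and 5.96 in Glutamate. The Glutamate arrays were the lowest, below all Control and all Galactose arrays, with a log2 difference from Control to Glutamate of -0.50 (SE 0.24, adjusted p = 0.73 from limma) and from Control to Galactose of -0.25 (SE 0.22, adjusted p = 0.529). Since the 2 genes encode closely related proteins, some of their sequence may be shared between the probes, which was not tested. The 250 bases before the annotated start of each gene are shown because the genes differ in their course over the groups, in RefSeq sequence of build GRCr8, 5′ to 3′ on the strand of the gene, with each CG dinucleotide in capitals. The stretch of Eif1a lies at chr18:41512048-41512297 on the plus strand and that of Eif1ax at chrX:39322024-39322273 on the minus strand.
Eif1a: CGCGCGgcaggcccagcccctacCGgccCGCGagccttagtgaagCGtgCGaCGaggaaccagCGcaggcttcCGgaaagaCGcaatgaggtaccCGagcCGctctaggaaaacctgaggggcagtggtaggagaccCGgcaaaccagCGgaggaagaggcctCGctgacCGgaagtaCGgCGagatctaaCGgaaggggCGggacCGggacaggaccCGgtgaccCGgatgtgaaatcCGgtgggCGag
Eif1ax: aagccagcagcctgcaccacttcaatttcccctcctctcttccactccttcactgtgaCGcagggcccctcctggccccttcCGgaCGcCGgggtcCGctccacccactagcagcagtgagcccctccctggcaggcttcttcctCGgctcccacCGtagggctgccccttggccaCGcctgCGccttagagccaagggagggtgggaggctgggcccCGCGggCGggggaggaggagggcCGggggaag
The stretch of Eif1a holds 27 CG dinucleotides and that of Eif1ax 13, where the median over all promoters of the RefSeq table is 5. Their share of G and C is 66.4% and 70%.

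The other genes of this group were Eif1b, a close relative of eIF1, the factor that guards start codon choice, and Eif1ad, whose protein has an eIF1A-like domain. Eif1b was at 6.53 and 5.40 in Control Day 4 and Day 6, 6.86, 6.78 and 7.12 in Galactose, and 6.42 and 6.20 in Glutamate. Its Galactose arrays lay above all others, with log2 differences of 0.96 for Galactose against Control and -0.61 for Glutamate against Galactose (SE 0.34, adjusted p = 0.252 and 0.908 from limma). Against Control Day 4 alone the first of these was 0.39. Eif1ad was at 5.17 and 4.20 in Control, 5.68, 5.42 and 5.17 in Galactose, and 5.11 and 5.39 in Glutamate, and the lowest Galactose array was level with Control Day 4.

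**Figure D3:**
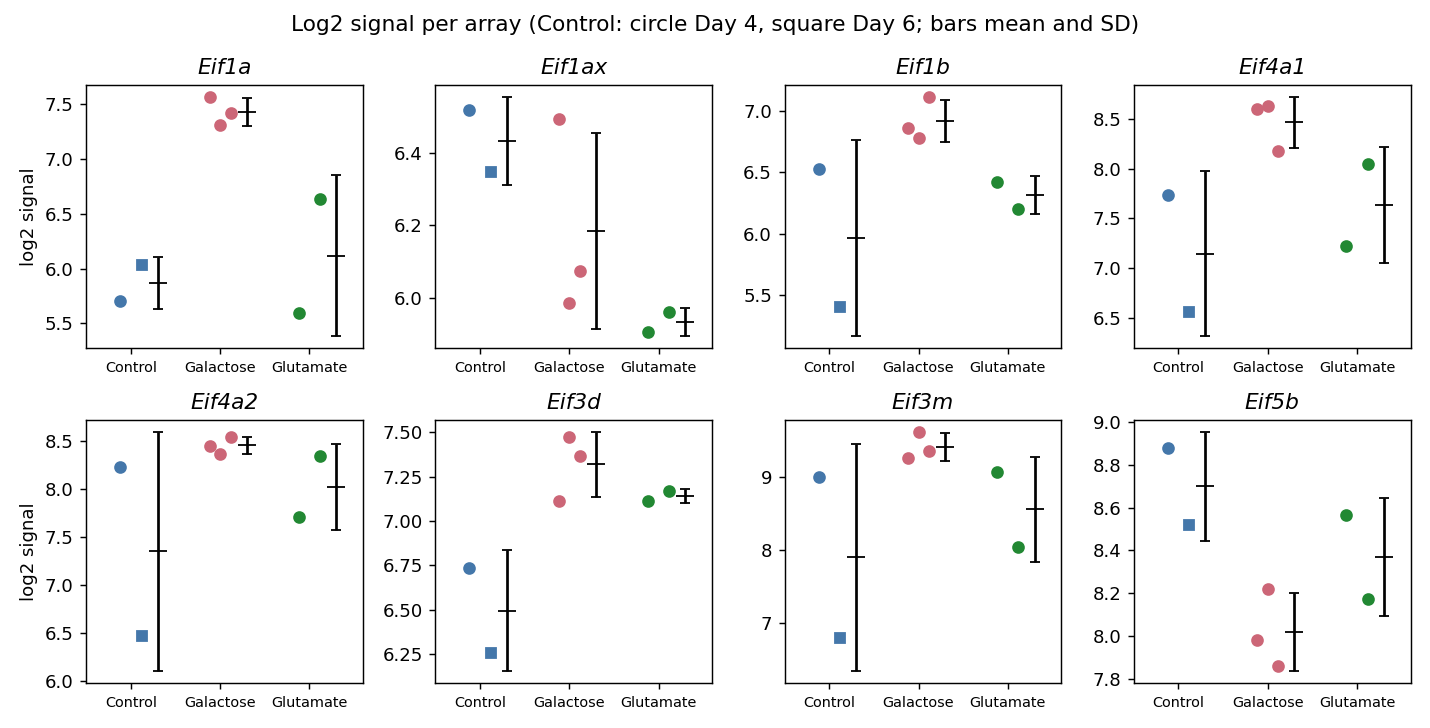
Log2 signal per array of 8 members in Control (circle Day 4, square Day 6), Galactose and Glutamate, with the mean and SD of each group beside the points, each panel on its own axis that does not start at 0. The Galactose points of Eif1a, between 7.31 and 7.56, stand above all others, those of Eif5b lie below both Control points, and in Eif4a2 and Eif3m Control Day 6 is the lowest point, followed by 1 Glutamate array.

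The eIF2 genes differed mainly between the Control arrays. Eif2s1, which encodes the eIF2 subunit that is phosphorylated under stress, was at 8.90 and 7.25 in Control Day 4 and Day 6, 8.36, 8.55 and 8.58 in Galactose, and 9.11 and 8.23 in Glutamate. All Galactose arrays thus fell between the Control arrays. Eif2s2, the beta subunit, was at 8.24 and 7.32 in Control, 8.27, 8.24 and 8.08 in Galactose, and 8.37 and 8.50 in Glutamate, and its Glutamate arrays lay above all others. Its log2 difference was 0.24 from Galactose to Glutamate and 0.66 from Control to Glutamate (SE 0.29 and 0.32, adjusted p = 0.955 and 0.73 from limma).

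Of the eIF2B subunits, which recharge eIF2, Eif2b2 and Eif2b5 were above the limit. Eif2b2 was at 4.999 and 4.66 in Control Day 4 and Day 6, 5.12, 5.29 and 5.50 in Galactose, and 5.12 and 5.32 in Glutamate. Eif2b5, the catalytic subunit, was at 5.18 and 4.97 in Control, 5.30, 5.52 and 5.35 in Galactose, and 5.30 and 5.30 in Glutamate. For Eif2b2 neither Control array was above the limit of 5, so that it was tested through the other groups. In both genes all Galactose and all Glutamate arrays lay above the Control arrays, by small steps, with log2 differences from Control to Galactose of 0.48 and 0.31 (SE 0.22 and 0.19, adjusted p = 0.316 and 0.383 from limma). The other measured subunits, Eif2b1 and Eif2b4, stayed between 3.22 and 4.45 and between 4.06 and 4.55.

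Among the kinases of eIF2, Eif2ak1, the haem-regulated kinase, was above the limit. It was at 5.08 and 4.32 in Control Day 4 and Day 6, 4.97, 5.50 and 5.63 in Galactose, and 5.40 and 4.94 in Glutamate, so the groups overlapped. Eif2ak3, the kinase of the endoplasmic reticulum stress response, lay between 3.71 and 4.45 in the 7 arrays and Eif2ak4, the amino acid sensor, between 3.39 and 4.15. These 2 kinases did not pass the limit in any array.

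Eif2a and Eif2d encode factors that can bring initiator tRNA to the ribosome without eIF2. Eif2a was at 5.70 and 4.14 in Control Day 4 and Day 6, 5.70, 5.94 and 6.17 in Galactose, and 5.67 and 5.70 in Glutamate. Control Day 6 alone was low, and the log2 difference from Control to Galactose was 1.02 (SE 0.44, adjusted p = 0.3 from limma), or 0.24 against Control Day 4. Eif2d was at 5.04 and 3.52 in Control, 3.78, 4.40 and 4.28 in Galactose, and 4.56 and 4.10 in Glutamate. It passed the limit of 5 only in Control Day 4, which lay above all other arrays.

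The subunits of eIF3, the scaffold that holds the other factors on the small subunit, differed among themselves. Of the 11 measured subunits, 9 stood higher in Galactose on average, with a median log2 difference of 0.65 (0.33 after the repeated quantile normalization). The median was 0.01 against Control Day 4 alone and 1.13 against Control Day 6 alone. Eif3m, Eif3f, Eif3h, Eif3i and Eif3k were each more than 2-fold lower in Control Day 6 than in Control Day 4, while Eif3a, the largest subunit, and Eif3c were higher in Control Day 6 by 0.74 and 0.28.

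Eif3m was at 9.001 and 6.79 in Control Day 4 and Day 6, 9.26, 9.62 and 9.36 in Galactose, and 9.07 and 8.04 in Glutamate. Its Galactose arrays lay above all others, and Control Day 6 minus Control Day 4 was -2.21, the widest gap of any member. The log2 differences were 1.52 for Galactose against Control and -0.86 for Glutamate against Galactose (SE 0.64, adjusted p = 0.294 and 0.916 from limma), and the first of these was 0.41 against Control Day 4. Eif3d, the subunit that can itself bind the mRNA cap, was at 6.73 and 6.25 in Control, 7.11, 7.47 and 7.37 in Galactose, and 7.11 and 7.17 in Glutamate. For Eif3d both Control arrays were lower than every other array, with log2 differences of 0.83 from Control to Galactose and 0.65 from Control to Glutamate (SE 0.23 and 0.25, adjusted p = 0.176 and 0.726 from limma), and 0.59 from Control Day 4 to Galactose.

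Eif3k was at 6.91 and 5.78 in Control Day 4 and Day 6, 7.44, 7.21 and 7.14 in Galactose, and 7.04 and 6.83 in Glutamate. Its Galactose arrays lay above all others, with a log2 difference from Control of 0.92 (SE 0.34, adjusted p = 0.266 from limma), or 0.35 against Control Day 4. Eif3h was at 8.70 and 7.15 in Control, 8.47, 8.62 and 8.68 in Galactose, and 8.77 and 9.06 in Glutamate, so that here the Glutamate arrays were the highest of all. Its log2 difference from Control to Glutamate, 0.99 (SE 0.47, adjusted p = 0.73 from limma), was the highest of any member, and it was 0.22 against Control Day 4. Eif3i likewise had its Glutamate arrays, at 6.99 and 7.22, above Control Day 4, at 6.98.

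Eif3a and Eif3b stood lower in Galactose than in Control on average. Eif3a was at 7.69 and 8.42 in Control Day 4 and Day 6, 7.76, 7.69 and 7.62 in Galactose, and 7.47 and 7.69 in Glutamate. Control Day 6 was the lone high array, and against Control Day 4 the Galactose mean differed by 0.0032. Eif3b was at 7.18 and 6.67 in Control, 6.39, 6.69 and 6.59 in Galactose, and 6.65 and 6.65 in Glutamate, and its log2 difference from Control to Galactose was -0.37 (SE 0.22, adjusted p = 0.389 from limma). The remaining subunits Eif3c, Eif3f, Eif3j and Eif3l had overlapping groups in all 3 comparisons, and for Eif3c the sign of the log2 difference from Control to Galactose, 0.12, turned to -0.25 after the repeated quantile normalization and to -0.03 with each array centred on its median.

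In eIF4F, the genes of the helicase are given first. Eif4a1 was at 7.73 and 6.56 in Control Day 4 and Day 6, 8.59, 8.63 and 8.17 in Galactose, and 7.23 and 8.05 in Glutamate. All Galactose arrays lay above the others, and the log2 differences were 1.32 for Galactose against Control and -0.83 for Glutamate against Galactose (SE 0.41, adjusted p = 0.208 and 0.908 from limma). Against Control Day 4 alone the difference was 0.73. Its near relative Eif4a2 was at 8.23 and 6.47 in Control, 8.45, 8.36 and 8.54 in Galactose, and 7.70 and 8.34 in Glutamate. The Galactose arrays of Eif4a2 were again the highest, but by only 0.22 on average against Control Day 4, and the log2 differences were 1.10 and -0.43 (SE 0.50, adjusted p = 0.315 and 0.955 from limma).

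For the scaffold gene Eif4g1 and the cap-binding gene Eif4e, Galactose and Control overlapped. Eif4g1 was at 7.10 and 7.34 in Control Day 4 and Day 6, 7.25, 7.17 and 7.27 in Galactose, and 7.51 and 7.56 in Glutamate. Its Glutamate arrays lay above all others, with log2 differences of 0.30 from Galactose and 0.31 from Control (SE 0.18 and 0.20, adjusted p = 0.912 and 0.756 from limma). Eif4g1 has another 2 probes, and on both of them Control Day 6 was the highest of the 7 arrays, at 7.13 and 5.96. Eif4e, the cap-binding protein, was at 6.46 and 6.03 in Control, 6.41, 6.43 and 6.29 in Galactose, and 6.39 and 7.36 in Glutamate. Its log2 difference from Galactose to Glutamate, 0.50 (SE 0.32, adjusted p = 0.916 from limma), was the highest of any member, with Glutamate 2 alone high.

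Eif4e2, a cap-binding relative that represses translation, was at 6.27 and 5.50 in Control Day 4 and Day 6, 6.86, 6.41 and 6.63 in Galactose, and 6.41 and 6.24 in Glutamate. Its Galactose arrays lay above both Control arrays, with a log2 difference of 0.74 (SE 0.28, adjusted p = 0.269 from limma), or 0.36 against Control Day 4. Eif4b and Eif4h, which stimulate the helicase, had log2 differences from Control to Galactose of -0.0033 and 0.23, and Eif4g2 and Eif4g3, further scaffold genes, of 0.11 and -0.09. For Eif4g1, Eif4g2, Eif4e and Eif4h the sign of that value, 0.01, 0.11, 0.13 and 0.23, turned after the repeated quantile normalization, to -0.31, -0.27, -0.05 and -0.06.

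The inhibitors of eIF4E did not share a course. Eif4ebp1 was at 7.99 and 6.02 in Control Day 4 and Day 6, 7.36, 7.09 and 7.42 in Galactose, and 7.74 and 6.16 in Glutamate. Control Day 6 minus Control Day 4 was -1.97 and Glutamate 2 minus Glutamate 1 was -1.58, both wider than any difference between the group means, and the Galactose arrays lay between the Control arrays. Eif4ebp2 was at 5.42 and 5.19 in Control, 5.06, 4.89 and 4.85 in Galactose, and 4.81 and 4.78 in Glutamate. Here the 3 groups did not overlap with each other, Control highest and Glutamate lowest, with log2 differences of -0.37 from Control to Galactose and -0.51 from Control to Glutamate (SE 0.19 and 0.21, adjusted p = 0.343 and 0.73 from limma). Eif4enif1, which carries eIF4E into the nucleus, was at 5.98 and 5.27 in Control, 5.04, 5.75 and 5.75 in Galactose, and 5.77 and 5.75 in Glutamate, with overlapping groups.

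Eif5b, the GTPase that joins the large ribosomal subunit to the small one at the end of initiation, had the lowest log2 difference from Control to Galactose. Its signals were 8.88 and 8.52 in Control Day 4 and Day 6, 7.98, 8.22 and 7.86 in Galactose, and 8.57 and 8.17 in Glutamate. All Galactose arrays lay below both Control arrays, and Glutamate 2 fell within the Galactose range while Glutamate 1 fell within the Control range. The log2 difference was -0.68 from Control to Galactose (SE 0.23, adjusted p = 0.237 from limma), -0.86 against Control Day 4 alone and -0.50 against Control Day 6 alone, and 0.35 from Galactose to Glutamate (SE 0.23, adjusted p = 0.916). Eif5a, the factor that carries the modified lysine hypusine, was at 9.56 and 7.58 in Control, 8.76, 9.21 and 9.09 in Galactose, and 9.15 and 8.47 in Glutamate, all other arrays falling between the Control arrays.

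Of the main elongation factors, Eef1a1 and Eef2 had Control arrays close to each other. Eef1a1, which delivers aminoacyl-tRNA, was at 12.40 and 12.20 in Control Day 4 and Day 6, 12.25, 12.49 and 12.53 in Galactose, and 12.40 and 12.52 in Glutamate, a log2 difference from Control to Galactose of 0.12 (SE 0.19). Eef2, the translocase, was at 9.74 and 9.52 in Control, 9.74, 10.08 and 10.21 in Galactose, and 9.91 and 10.09 in Glutamate, with a log2 difference of 0.38 (SE 0.22, adjusted p = 0.372 from limma) that was -0.16 after the repeated quantile normalization. In both genes the Glutamate arrays lay above the Control arrays. The probe of Eef1a1l1, a gene named for its likeness to Eef1a1, whose transcripts may share sequence with it, was between 9.03 and 9.94 with no separation of groups.

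Eef1g and Eef1d, which encode subunits of the complex that recharges eEF1A, were low in Control Day 6. Eef1g was at 11.36 and 9.40 in Control Day 4 and Day 6, 10.92, 11.004 and 11.08 in Galactose, and 11.57 and 10.28 in Glutamate. Control Day 4 thus lay above all Galactose arrays and Glutamate 2 minus Glutamate 1 was -1.29. Eef1d was at 7.83 and 6.79 in Control, 7.87, 7.85 and 7.96 in Galactose, and 7.90 and 7.37 in Glutamate, and the Galactose arrays exceeded Control Day 4 by a mean of 0.06. Eef1e1, which belongs to the complex of aminoacyl-tRNA synthetases despite its name, was at 4.69 and 4.04 in Control, 5.33, 4.92 and 5.05 in Galactose, and 4.84 and 4.84 in Glutamate. Its Galactose arrays were the highest and its Control arrays the lowest, with a log2 difference of 0.73 from Control to Galactose (SE 0.26, adjusted p = 0.24 from limma), but since it passed the limit through Galactose arrays alone, a higher Galactose value was in part a condition of its being tested. Eef1akmt1, a lysine methyltransferase of eEF1A, was at 4.83 and 3.85 in Control, 4.93, 4.89 and 4.86 in Galactose, and 5.13 and 4.86 in Glutamate, and passed the limit through Glutamate 1 alone.

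The 14 genes below the limit were at or under 5 in every array and were not tested. They include Eef1a2, the eEF1A form of muscle and nerve, between 3.38 and 3.85, Eef1b2 between 2.26 and 3.20, Eef2k, the kinase that switches eEF2 off, between 3.83 and 4.36, Eif4ebp3 between 2.62 and 3.09, and Eif4e3 between 4.17 and 4.80. Just outside the limit were Eif5a2, with a highest signal of 4.80, and Eef1a1-ps7, with 4.96, and just inside were Eif2d and Eef1akmt1, with 5.04 and 5.13. Of the 43 genes that passed, 34 were above 5 in every array and 1, Eef1e1, only in Galactose arrays. Without the limit, the median log2 difference from Control to Galactose over all 57 genes was 0.28.

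The next question was how the genes stood when glutamate was added to the galactose medium. From Galactose to Glutamate 17 of the 43 members had a higher mean and 26 a lower mean, against 35.4% and 64.6% of all tested probes, and 0 changed in limma, with 0% of all tested probes called. At an unadjusted p under 0.05, Eif1a was lower and 0 members were higher, against 4.4% and 1.13% of all probes. This fit has 1 estimate of the spread for all 3 groups, so the gap between the Control arrays enters it. With the Galactose and Glutamate arrays alone, 4 members were lower and 0 higher at that threshold, against 9.83% and 2.12% of all probes. At an adjusted p under 0.05, 0 members changed there as well. The median log2 difference of the members was -0.08 and that of all probes -0.11, and for the members it turned to 0.08 after the repeated quantile normalization and to 0.03 with each array centred on its median. The Glutamate arrays lay below all Galactose arrays in 9 members, against 21.7% of all probes, and above all of them in 3, against 7.76%. The 9 were Eif1a, Eif1ax, Eif1b, Eif3k, Eif3m, Eif4a1, Eif4a2, Eif4ebp2 and Eef1e1, and the 3 were Eif2s2, Eif3h and Eif4g1. The 4 members more than 2-fold apart between the Glutamate arrays were Eif4ebp1, Eef1g and Eif3m, lower in Glutamate 2, and Eif1a, higher in Glutamate 2.

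From Control to Glutamate 36 members had a higher mean and 7 a lower mean, against 56.1% and 43.8% of all tested probes, and 0 changed in limma, with 0% of all tested probes called. At an unadjusted p under 0.05, Eif3d was higher and Eif4ebp2 lower, against 2.93% and 3.68% of all probes. The median log2 difference was 0.35 for the members and 0.06 for all probes. Without Control Day 6 the median of the members was -0.0019 and 0 changed, and without Control Day 4 it was 0.82 and 13 changed, where 16.5% of all probes were called. The Glutamate arrays lay above both Control arrays in 11 members, against 13.3% of all probes, and below both in Eif1ax, Eif3b and Eif4ebp2, against 15%. The 3 comparisons share their arrays in pairs, so they are not independent of each other. High Galactose arrays by themselves give both a higher value against Control and a lower value from Galactose to Glutamate.

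**Figure D4:**
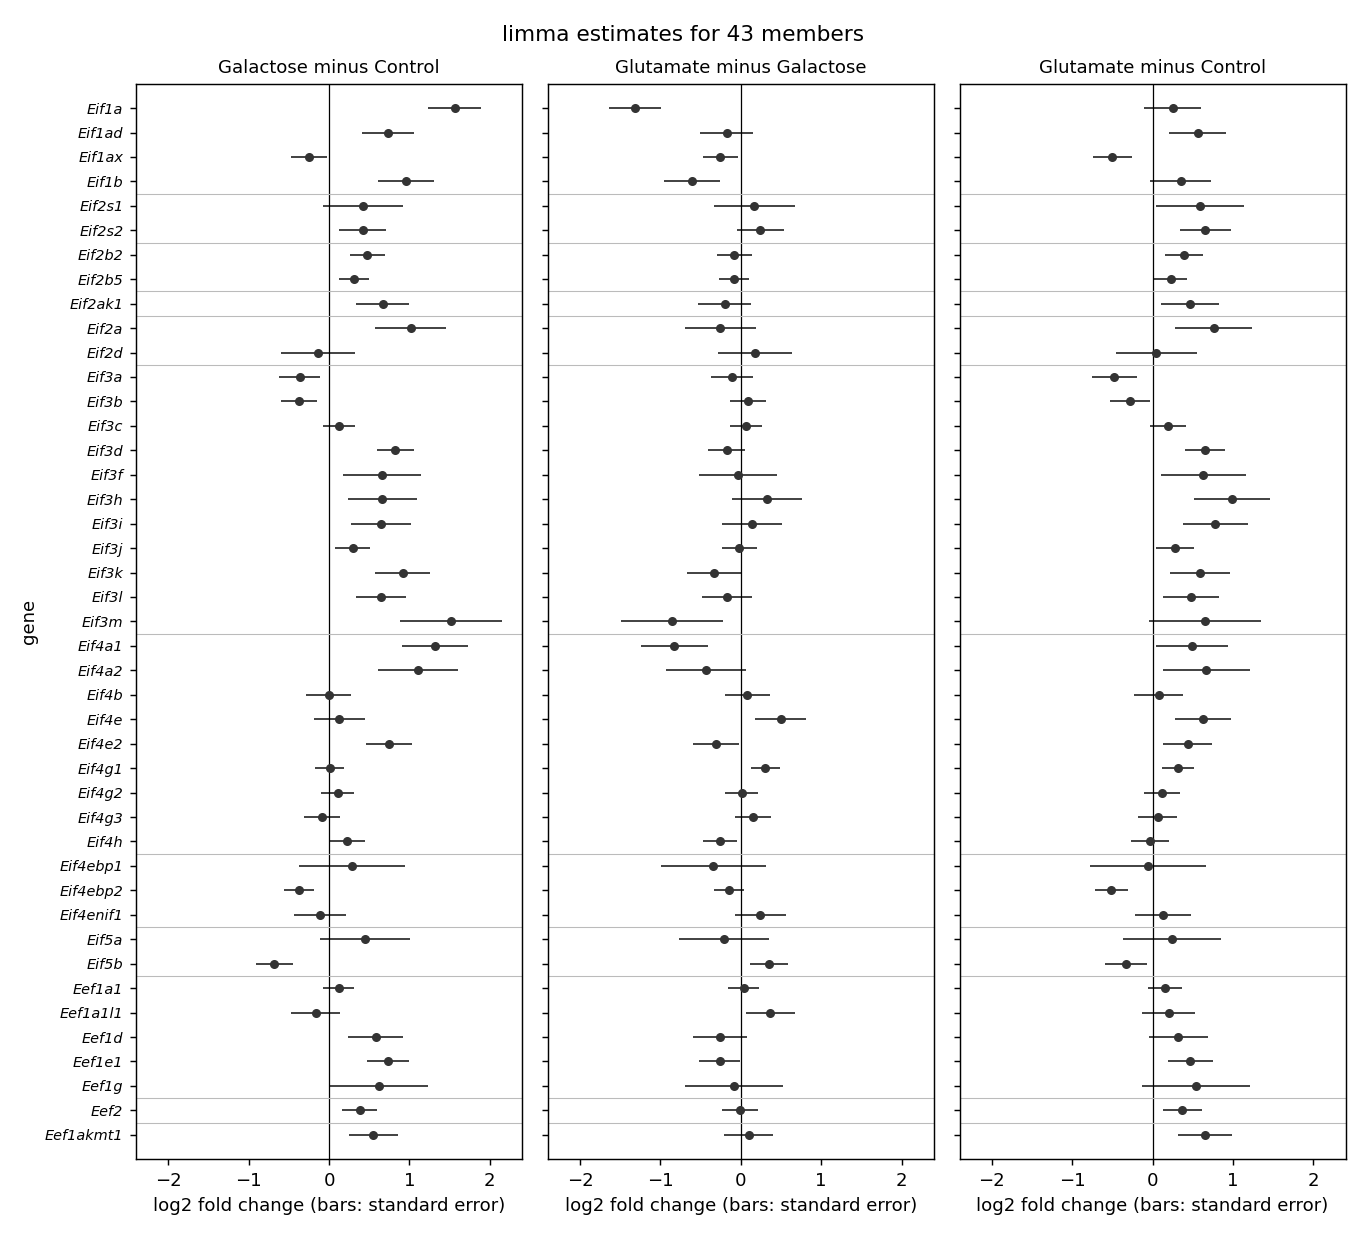
The limma log2 difference (points) and standard error (bars) of each of the 43 members, by role from eIF1 to the methyltransferases, in the 3 comparisons. Eif1a lies farthest right in the left panel, at 1.56, and farthest left in the middle panel, at -1.31, and the longest bars of the left panel are those of Eif4ebp1, with an SE of 0.66.

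The promoter windows of 39 of the 43 members could be matched to RefSeq by gene ID, each of 250 bases before and 50 bases from the annotated start. The mRNAs of many translation factors are known to begin with a C and a run of pyrimidines, which ties their translation to mTOR signalling. A C followed by at least 4 more C or T, beginning within 5 bases of the annotated start, was present in 9 of the 39 members (23.1%) and in 17% of all 33469 windows. The 5 members with the longest runs are shown over 30 bases, 10 before the annotated start and 20 from it, in build GRCr8, 5′ to 3′ on the strand of the gene, with the run in capitals. They lie at chr1:172369052-172369081 on the plus strand (Eif3f), chr15:35826902-35826931 on the minus strand (Eef1akmt1), chr3:111897174-111897203 on the minus strand (Eif3m), chr2:144911350-144911379 on the plus strand (Eif2a) and chr8:88225050-88225079 on the minus strand (Eef1a1).
Eif3f: cccttccgttctagCCTCTCTCTTTCTCgg
Eef1akmt1: gatgctcattggCCCCCTCCTTCCggtcgg
Eif3m: caccgtgtggtaccgCTCCTTTTCCggtcg
Eif2a: gcatgggtttCTCTTTCCgggacaagatgg
Eef1a1: ttggacgttCTTTTTCgcaacgggtttgcc
The other 4 members with such a run were Eef1e1, Eif2b5, Eif3c and Eif4g1. The median log2 difference from Control to Galactose was 0.55 in the 9 members with a run and 0.42 in the 30 without, and the median difference of Control Day 6 from Control Day 4 was -0.65 and -0.64. The sequence CACGTG, which reads the same on both strands and is known as a binding sequence of Myc and its relatives, was in the windows of 9 members (Eef2, Eif1b, Eif3a, Eif3b, Eif3f, Eif4e, Eif4g1, Eif4h and Eif5a), 23.1% against 6.42% of all windows. Here the median log2 difference from Control to Galactose was 0.23 in the 9 members with the sequence and 0.51 in the 30 without. The 9 base element ATTGCATCA, or TGATGCAAT on the other strand, to which Atf4 is known to bind with its partners, was in 0 of the 39 and in 0.188% of all windows. The members had to pass the signal limit, while the windows set against them include those of genes that did not. A share among the tested genes alone was not computed. These matches describe letters in a window and do not show that a site is used.

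The partner genes of the pathway were taken from lists. Of 11 measured genes around eIF2 phosphorylation, 0 changed in limma in any comparison. At an unadjusted p under 0.05, Ddit3 and Ppp1r15a had a higher mean in Galactose against Control and a lower one in Glutamate against Galactose, where 11.8% of all tested probes were higher and 4.4% lower. At that threshold Trib3 was lower in Glutamate than in Control, where 3.68% of all tested probes were. Its log2 difference was -0.99 (SE 0.35, adjusted p = 0.723 from limma), and it was -0.47 from Control to Galactose. Ddit3, a stress-induced transcription factor, was at 8.72 and 6.55 in Control Day 4 and Day 6, 9.54, 8.69 and 9.54 in Galactose, and 7.22 and 7.68 in Glutamate, so that Galactose 2 lay below Control Day 4. The study also picked Ddit3 on these arrays for that course, so its values here are not independent evidence of it. Ppp1r15a, which brings a phosphatase to eIF2, was at 6.53 and 6.51 in Control Day 4 and Day 6, 7.17, 7.58 and 7.36 in Galactose, and 6.49 and 6.62 in Glutamate, so that all Galactose arrays lay above the others without a gap between the Control arrays. The log2 differences of Ppp1r15a were 0.85 and -0.81 (SE 0.20, adjusted p = 0.145 and 0.606 from limma). Atf4, the transcription factor whose translation increases when eIF2 is phosphorylated, lay between 9.49 and 9.98 in the 7 arrays. Of 17 measured partners of the cap complex and inputs from mTOR, 0 changed in limma in any comparison, and 1, the poly(A)-binding protein gene Pabpc4, was higher in Galactose at an unadjusted p under 0.05, with Control arrays at 8.07 and 7.29 and Galactose 1 at 8.10, close to Control Day 4. In 6 genes of termination, recycling and reinitiation and 6 further elongation and modification genes 0 changed in limma. At an unadjusted p under 0.05, 0 of them were higher or lower in Galactose than in Control. Abce1, in the first of these lists, was lower in Glutamate than in Control at that threshold, where 3.68% of all tested probes were. It was at 7.01 and 7.08 in Control and 6.47 and 5.81 in Glutamate, a log2 difference of -0.91 (SE 0.27, adjusted p = 0.721 from limma). The median log2 differences from Control to Galactose of these 4 lists were 0.12, 0.05, -0.0043 and 0.45.

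Markers of the lens and its neighbours were read from the same arrays. All 6 measured fibre genes and all 6 measured epithelial genes were above the limit in at least 1 array, as were 1 of 9 genes of ciliary body and iris (Des), 0 of 7 of retina, 1 of 6 of blood, vessels and leukocytes (Cd68) and 1 of 7 of fibroblasts (Pdgfra). The summed signal of the fibre genes, in log2 units, was 14.40 and 14.43 in the Control arrays, 14.26 to 14.28 in Galactose and 14.38 and 14.41 in Glutamate. That of the epithelial genes stood at 13.32 on Control Day 4 and at 12.87 on Control Day 6, the lowest of the 7 arrays, 13.09 to 13.17 in Galactose and 13.21 and 13.14 in Glutamate. The epithelial sum is carried by Cryab, at 13.16 and 12.72 in Control Day 4 and Day 6. Which cells gave the Cryab signal was not tested, so the sum need not follow the epithelium. The other epithelial genes Dkk3, Foxe3, Gja1 and Pax6 were also lower in Control Day 6, while Cdh1 was at 7.80 and 7.81, and the part of these genes in the result was not tested. The sums hide single genes. At an unadjusted p under 0.05 in limma, 2 fibre genes and 1 epithelial gene were lower in Galactose than in Control, and 0 were higher. These were Gja3 and Mip, with log2 differences of -1.27 and -0.70, and Foxe3. Foxe3 was at 6.88 and 6.25 in Control, 4.06 to 4.89 in Galactose, and 5.85 and 6.05 in Glutamate. Of the genes listed for fibroblasts Pdgfra was at 7.21 and 6.38 in Control, 4.68 to 5.43 in Galactose and 6.11 and 5.27 in Glutamate. The other 6 stayed below the limit in every array, and which cells gave the Pdgfra signal was not tested. Of the ciliary body and iris genes Des was at 6.26 and 6.04 in Control, 3.92 to 4.24 in Galactose and 6.23 and 4.48 in Glutamate, while the other 8 stayed below the limit. The median signal of all tested probes was also lowest in Control Day 6, at 5.37, against 5.55 to 5.77 in the other arrays. The median over all 36685 probes, weak ones included, was instead highest in Control Day 6, at 2.94, against 2.79 to 2.88 in the others. That array thus differed from the others over its whole range of signals, and the part of this in the low values of the members was not tested.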

How the data were processed

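Each of the 7 samples was run on 1 Rat Gene 2.0 ST array. The authors background-corrected, quantile normalized and summarised the arrays by RMA (Robust Multi-array Average), so that each deposited value is a log2 signal of 1 probe set, called a probe here. The software version is not given in the sources used here. Probes were named from the platform annotation, in which 18511 of the 36685 probes have 1 gene, 575 several and the rest none. The 5320 named probes above 5 in at least 1 array entered a limma fit (version 3.58.1, R 4.3.3) of the 3 group means, which had 4 residual and 2.73 prior degrees of freedom. Benjamini-Hochberg adjustment ran over these probes, and the threshold was 0.05. The fit was tested on simulated data. Each gene is given by its probe with the highest mean. Sequences are from RefSeq, build GRCr8. The members and lists were chosen with earlier results of these data known. Values in every array are given for the members with the largest differences in each comparison and in each role group, those picked by the study, and those next to the limit of 5, and values of further members were added after they had been seen. The alternatives were no filter, a filter on the mean, quantile normalization repeated over the named probes, centring on the median, the mean of a gene's probes, a variance trend, array weights, the compared arrays alone, the replicate number as a block, and leaving out each array. Opacity and RT-qPCR results were not analysed here.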

Additional observations from a re-analysis of the deposited data

How the results depend on the processing

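In the 6 summaries of the members (the number changed and the median log2 fold change in each comparison), the number changed was 0 under all 8 or 9 alternatives other than leaving out an array. Leaving out each array in turn gave 0 to 23 changed members from Control to Galactose, 0 to 13 from Control to Glutamate and 0 from Galactose to Glutamate, and 23 and 13 are the counts without Control Day 4. The median from Control to Galactose went from 0.43 to 0.0916 after the repeated quantile normalization (the cause was not tested) and was 0.0586 to 1.04 when each array was left out. The median from Control to Glutamate was -0.00187 to 0.82 and that from Galactose to Glutamate -0.09 to -0.02 when each array was left out. The ends of the first 2 ranges are the values without Control Day 6 and without Control Day 4, where 1 array stands for Control and is assumed to vary like the other groups. With the replicate number of the Galactose and Glutamate arrays as a block, the median from Galactose to Glutamate was -0.05 and 0 members changed. Nothing states that the numbers pair the arrays. The deviations of same-numbered arrays correlated at -0.03 and 0.06 over 5320 probes. These values cannot settle a pairing, because the deviations of the 2 Glutamate arrays mirror each other. For single genes, 78 of 1598 alternative values of the 35 named members changed sign without being called in either setting. Values became called only without Control Day 4, and 0 called values changed sign. A part of the 1598 values could not change sign. No filter, the filter on the mean, the variance trend and the compared arrays alone leave the log2 difference as it was. So does leaving out an array of a group outside the comparison. The share of 78 in 1598 thus understates how often signs turned where they could. Without Control Day 6, 9 of the 35 signs turned from Control to Galactose and 11 from Control to Glutamate. Without Control Day 4 these counts were 4 and 1. The signal limit applies to the highest array of a gene, so a gene near 5 can owe its place to the group in which it is high. Its other arrays can lie well below 5, as for Eif2d, at 5.04 in Control Day 4 and 3.52 in Control Day 6.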
